A study of Mus musculus with 16 samples.

Results

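The mice that came back alive from orbit, the live animal return (LAR) arm, make up 8 of the 16 skin libraries of the study. They comprise 5 mice exposed to the space environment (ESE group) and 3 ground controls, chosen as the libraries that the authors' list of libraries assigns to that arm. All mice were female BALB/cAnNTac, an albino inbred strain, 10 to 16 weeks old. The ESE mice of this arm lived 40 days on the International Space Station and were killed after 2 days of recovery on the ground, while their ground controls were kept on Earth under similar housing. The paper splits the ESE group by its level of 5-methylcytosine. By the labels, 2 of the 5 ESE mice belong to the low group, the responder ESE cohort (replicates 3 and 4), and 3 to the high group, the non-responder ESE cohort (replicates 4, 5 and 6). The ground controls are replicates 4, 5 and 6. The other 8 libraries are the ISS arm, with 5 ESE mice killed in orbit after 22 to 23 days and 3 ground controls, and serve here only where the arms are compared. Hind limb skin RNA was captured with exon probes and sequenced, with 1 library for each mouse. The question is how skin transcripts differ between ESE mice and ground controls of this arm, and whether that depends on ground control replicate 6, a library rich in muscle transcripts.

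Glucocorticoids are adrenal steroid hormones that rise with stress and follow the daily rhythm. They bind the glucocorticoid receptor, which moves into the nucleus and turns on genes such as Fkbp5, Tsc22d3, Per1 and Zbtb16, and in skin they restrain inflammation, cell division and hair growth. Hair follicles pass through growth, regression and rest. In growth, matrix cells under Wnt and Hedgehog signals divide to build the hair shaft and its inner root sheath, while melanocytes of the bulb switch on the pigment genes. Whole skin also holds dermal fat, vessels and a thin sheet of striated muscle.

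Promoter windows, 250 bases before to 50 bases after a transcript start, were read for the glucocorticoid targets from RefSeq (GRCm38.p6), because their transcripts lead the comparison below. Of the 20 listed genes, 16 had a window, with 26 windows in all. Zbtb16, the first gene described below, had none, and sequence outside the windows was not searched. The palindromic response element was searched as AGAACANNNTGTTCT on both strands, and lay in 1 of the 26 windows (3.85%) and in 3 of all 32851 windows (0.00913%). Its arm AGAACA, which the full element contains on each side, was in 5 of the 26 windows (19.2%) and in 19% of all windows. The E-box CACGTG, the motif that clock factors bind, was in 4 of the 26 windows (15.4%) and in 7.15% of all. The share of windows with that arm was thus close to that of all genes. The 4 windows printed show the E-box, the single arm and the full element, with the matched letters in capitals. They are the E-box windows of Fkbp5 (chr17:28486100-28486399, minus strand) and Per1 (chr11:69098699-69098998, plus strand), a single-arm window of Tsc22d3 (chrX:140600473-140600772, minus strand) and the window of Sgk1 with the full element (chr10:21993640-21993939, plus strand), which also holds an E-box that overlaps a further single arm.
Fkbp5: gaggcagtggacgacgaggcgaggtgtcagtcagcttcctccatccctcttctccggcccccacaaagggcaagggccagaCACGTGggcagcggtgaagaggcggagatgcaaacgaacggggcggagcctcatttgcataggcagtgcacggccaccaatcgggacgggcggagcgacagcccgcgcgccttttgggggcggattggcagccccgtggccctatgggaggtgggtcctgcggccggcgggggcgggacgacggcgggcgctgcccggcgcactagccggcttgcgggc
Per1: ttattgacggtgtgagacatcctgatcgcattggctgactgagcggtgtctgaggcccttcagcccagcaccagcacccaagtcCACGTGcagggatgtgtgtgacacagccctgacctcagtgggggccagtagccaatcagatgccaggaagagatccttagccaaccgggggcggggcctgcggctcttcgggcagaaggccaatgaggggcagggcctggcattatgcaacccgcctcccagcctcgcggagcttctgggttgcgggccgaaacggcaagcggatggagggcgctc
Tsc22d3: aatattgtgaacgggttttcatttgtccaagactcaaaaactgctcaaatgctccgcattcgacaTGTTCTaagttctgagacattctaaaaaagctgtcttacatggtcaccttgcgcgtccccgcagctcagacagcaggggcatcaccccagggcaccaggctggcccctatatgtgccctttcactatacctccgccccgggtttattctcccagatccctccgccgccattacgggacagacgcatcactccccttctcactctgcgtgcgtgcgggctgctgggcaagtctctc
Sgk1: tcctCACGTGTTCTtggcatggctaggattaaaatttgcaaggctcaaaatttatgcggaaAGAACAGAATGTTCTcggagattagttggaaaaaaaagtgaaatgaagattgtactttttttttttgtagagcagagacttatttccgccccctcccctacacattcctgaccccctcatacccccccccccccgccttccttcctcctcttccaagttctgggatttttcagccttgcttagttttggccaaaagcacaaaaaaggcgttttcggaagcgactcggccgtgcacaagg

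The ESE libraries held 11926454 to 21781179 counts and the ground controls 6369363 to 22593931, a difference within the spread (two-sided exact permutation p = 0.571, where the smallest p possible is 0.0357). The RNA was degraded in both groups. The RNA integrity number, a score of intactness, was 1.2 to 2.1 in ESE mice and 1.8 to 2.1 in controls (exact permutation p = 0.393), and the share of fragments over 200 nucleotides was 50.4% to 79.0% and 43.5% to 71.0% (exact permutation p = 0.857). Ribosomal RNA took 13.3% to 27.9% of raw reads in the ESE group and 14.2% to 39.5% in the controls (exact permutation p = 0.607). Reads on the sense strand were 2.54% to 6.89% of coding reads in the ESE group, lowest in the responders, and 5.97% to 9.43% in the controls (exact permutation p = 0.143). Markers of the labelled tissue were present throughout, with summed levels of 4847 to 13923 CPM, counts scaled to the library's size, for the 10 genes of basal keratinocytes. Ground control replicate 6 stood apart, since the 22 fast muscle genes summed to 314420 CPM there, against 58.6 and 33656 CPM in ground control replicates 4 and 5. Non-responder replicate 4 stood apart by fat, with 13019 CPM for 20 adipocyte genes against 827 to 1908 CPM in the other ESE mice. Since libraries were numbered group after group, preparation order and group cannot be told apart.

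Across all genes, the difference between ESE mice and ground controls of the LAR arm did not pass the test for any gene. Of 13864 genes, 0 (0.0%) had an adjusted p under 0.05 in edgeR's quasi-likelihood test, and the smallest adjusted p was 0.672. At an unadjusted p under 0.05 there were 348 higher genes (2.51%) and 658 lower genes (4.75%). Other tests on the same counts called few genes. DESeq2 called 11 higher (0.0791%) and 17 lower (0.122%) of 13899 genes, and edgeR's likelihood ratio test called 1 higher (0.00721%) and 13 lower (0.0938%). The groups did not overlap at all in 219 higher (1.58%) and 273 lower genes (1.97%). The median log2 fold change was -0.04, and 46.1% of genes had a higher mean level in ESE mice.

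Without ground control replicate 6, again 0 of 14134 genes (0.0%) passed in edgeR's quasi-likelihood test, with a smallest adjusted p of 0.597. The unadjusted p was under 0.05 for 520 higher (3.68%) and 638 lower genes (4.51%). DESeq2 called 18 higher (0.139%) and 14 lower (0.108%) of 12921 genes, and the likelihood ratio test called 4 higher (0.0283%) and 6 lower (0.0425%). With 2 controls left, 1136 higher (8.04%) and 1127 lower genes (7.97%) did not overlap between the groups. The direction of 18.6% of genes (2568 of 13840) turned when this library was left out, and the median log2 fold change moved from -0.04 to 0.06. In both fits 397 genes had an unadjusted p under 0.05 in the same direction, 157 of them higher and 240 lower. The genes described next are the leading ones of these fits and of the lists. None of them passed in edgeR's quasi-likelihood test. Where a DESeq2 adjusted p is printed beside a gene, its adjusted p over the other settings tried ran up to 0.992 with all controls, and up to 1 without ground control replicate 6.

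Transcripts of glucocorticoid receptor targets were among the leading lower genes in returned mice. Zbtb16 encodes a zinc-finger repressor induced by glucocorticoids, and lies on chromosome 9 from 48654297 to 48835945 (mm10). Its level was 286, 329 and 313 CPM in ground control replicates 4, 5 and 6, and 97.6, 124 and 101 CPM in non-responder replicates 4, 5 and 6. It was 104 and 53.5 CPM in responder replicates 3 and 4. Every ESE library was thus below every control, by 3.22-fold in the fit (log2 fold change -1.69, SE 0.27), and by -1.68 (SE 0.30) without ground control replicate 6. Fkbp5, whose product binds the receptor complex and dampens hormone binding, had 62.6, 45.1 and 58.9 CPM in the controls and 19.9, 26.7, 13.5, 26.7 and 16.7 CPM in the ESE mice, in the order non-responder replicates 4 to 6, then responder replicates 3 and 4. The groups did not overlap, and the log2 fold change was -1.42 (SE 0.27), or -1.38 (SE 0.31) without ground control replicate 6. Tsc22d3 encodes GILZ, a mediator of the anti-inflammatory action of glucocorticoids. It had 109, 204 and 228 CPM in the controls and, in the same order, 47.7, 73.1, 50.4, 53.3 and 19.6 CPM in ESE mice, with a log2 fold change of -1.89 (SE 0.40) and -1.68 (SE 0.44). For these 3 genes the adjusted p was 0.672 in edgeR's quasi-likelihood test with all controls. In DESeq2 the adjusted p was 0.000496 for Zbtb16, 0.0135 for Fkbp5 and 0.0348 for Tsc22d3. Without ground control replicate 6, the call in DESeq2 and in the likelihood ratio test was left for Zbtb16 alone.

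The other targets of the list were less uniform. Per1, a clock repressor that glucocorticoids also induce, had 114, 181 and 148 CPM in the controls and 116, 103, 89.1, 81.0 and 74.0 CPM in ESE mice, so that only non-responder replicate 4 reached the lowest control. Its log2 fold change was -0.67 (SE 0.23), and -0.67 without ground control replicate 6. Ddit4, a stress-induced inhibitor of mTOR, had 46.7 to 51 CPM in the controls and 26 to 45.6 CPM in ESE mice, with no overlap (log2 fold change -0.48, SE 0.23). Sgk1, a kinase of ion transport whose window above holds the full response element, overlapped, with 45.4 to 82.1 CPM in the controls and 39.4 to 89.4 CPM in ESE mice. Nr3c1, the receptor itself, had 43 to 99.8 CPM and 31.9 to 66.4 CPM (log2 fold change -0.55, SE 0.34, and -0.23, SE 0.36, without ground control replicate 6). Of the 19 list genes tested, 5 had a higher and 14 a lower mean level, with a median of -0.55 beside -0.04 for all genes. At an unadjusted p under 0.05, 6 of the 19 were lower and 0 higher, where 4.75% of all genes were lower, and 4 of the 19 did not overlap, where 1.97% of all did so on the lower side. Leaving out ground control replicate 6 gave a median of -0.42, with 4 lower genes at that p and 4 without overlap, where 4.51% and 7.97% of all genes were so.

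RNA quality was set beside these genes as a covariate, which was decided on with the values in view. With the RNA integrity number in the model, the log2 fold changes of Zbtb16, Fkbp5 and Tsc22d3 were -1.62, -1.36 and -1.76. With the ribosomal share of reads they were -1.65, -1.38 and -1.89, and without ground control replicate 6 they were -1.40, -1.03 and -1.48. Leaving out any single library of the 8 kept Zbtb16 between -1.79 and -1.49, Fkbp5 between -1.55 and -1.27, and Tsc22d3 between -2.15 and -1.64.

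The ISS arm gave other values for the same genes. Within the ISS arm the log2 fold change between ESE mice and controls was 0.33 (SE 0.48) for Zbtb16, 0.88 (SE 0.54) for Fkbp5, 0.19 (SE 0.50) for Tsc22d3 and 0.40 (SE 0.47) for Per1. The difference between the arms, tested as an interaction over all 16 libraries, was -2.02 (SE 0.60) for Zbtb16, -2.31 (SE 0.64) for Fkbp5, -2.09 (SE 0.70) for Tsc22d3 and -1.08 (SE 0.56) for Per1. None of these passed edgeR's quasi-likelihood test (adjusted p = 0.999). Of 14381 genes tested for that difference, 0 (0.0%) passed, and at an unadjusted p under 0.05 there were 225 higher (1.56%) and 465 lower (3.23%). With all 16 libraries scaled together, Zbtb16 was at 282 to 325 CPM in the LAR controls, 52.9 to 123 CPM in LAR ESE mice, 83.2 to 123 CPM in the ISS controls and 48.9 to 215 CPM in ISS ESE mice. The 3 LAR controls were thus above all 13 other libraries. For Fkbp5 the lowest LAR control, at 44.6 CPM, was below 1 of the 13 others, non-responder replicate 3 of the ISS arm at 47.3 CPM. For Tsc22d3 the LAR controls were at 108 to 227 CPM, the ISS controls at 45.2 to 67.0 CPM and the ISS ESE mice at 18.2 to 117 CPM, the highest of which was above the lowest LAR control. The list had 12 of 19 genes higher in the ISS arm, with a median of 0.19.

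**Figure D1:**
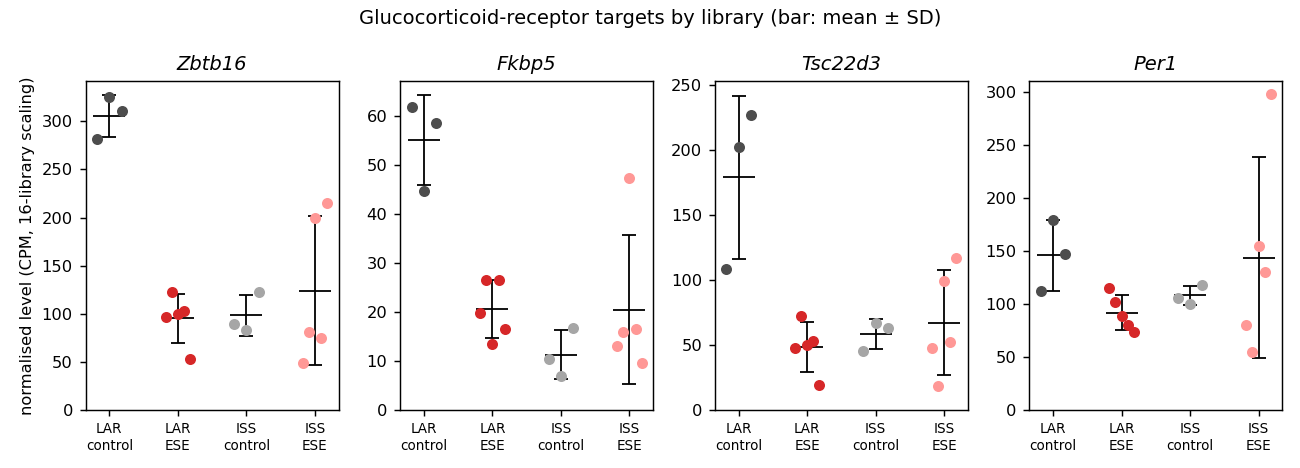
Level of Zbtb16, Fkbp5, Tsc22d3 and Per1 in CPM on the y axis for each of the 16 libraries, by arm and group, with 1 point for each mouse and a bar at the mean with its SD (n = 3 controls and 5 ESE mice in each arm). The 3 LAR controls stand highest for Zbtb16, at 282 to 325 CPM, while the LAR ESE mice, at 52.9 to 123 CPM, overlap with both ISS groups.

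The 20 clock genes, which share Per1 with the list of glucocorticoid targets, leaned the same way. At an unadjusted p under 0.05, 2 of the 20 were lower and 0 higher, where 4.75% and 2.51% of all genes were. With all controls, 0 of the 20 were without overlap on the lower side, where 1.97% of all genes were. Only 2 of the 20 had a higher mean level in ESE mice, with a median of -0.46, and -0.37 without ground control replicate 6, where leaving out ground control replicate 5 as well gave 0.02. Rora, a nuclear receptor that activates clock genes, had 252, 144 and 139 CPM in controls and 45.6 to 145 CPM in ESE mice, which overlap (log2 fold change -0.92, SE 0.38). The ISS arm had 5 of 20 clock genes higher, with a median of -0.20.

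Several further leading lower genes kept the groups apart with and without ground control replicate 6. Ogn encodes osteoglycin, a small leucine-rich proteoglycan of connective tissue, and its locus overlaps Cenpp on the other strand. It had 18.0, 9.42 and 25.8 CPM in the controls and 2.08 to 4.91 CPM in ESE mice, 5.25-fold lower in the fit (log2 fold change -2.39, SE 0.39, DESeq2 adjusted p = 0.00053, and 0.672 in edgeR's quasi-likelihood test). Tead1, a DNA-binding partner of YAP in organ growth, was even across the controls, at 46.1, 45.6 and 47.5 CPM. In ESE mice it was 21.7, 21.0, 16.6, 29.4 and 18.7 CPM, so that the highest ESE library was well below the lowest control (log2 fold change -1.11, SE 0.21, and -1.09, SE 0.25, without ground control replicate 6). The YAP-TEAD target list as a whole had 3 of 13 genes higher, with a median of -0.24. Mn1, a transcriptional coregulator, had 27.2, 22.2 and 59.7 CPM in the controls and 9.82 to 14.8 CPM in ESE mice (log2 fold change -1.74, SE 0.34, and -1.18, SE 0.25, without ground control replicate 6). Mir22hg, the host transcript of miR-22, had 24.1 to 28.9 CPM against 10.1 to 14.9 CPM (log2 fold change -1.04, SE 0.21). For Tead1, Mn1 and Mir22hg the interaction with arm was -1.18 (SE 0.36), -2.14 (SE 0.63) and -1.11 (SE 0.39), and for Ogn -2.72 (SE 1.01), none of which passed edgeR's test (adjusted p = 0.999).

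For other lower genes the size of the difference, or the overlap of the groups, changed with the controls kept. Asb2, a ubiquitin ligase subunit found in muscle, had 24.6, 27.1 and 235 CPM in the controls and 4.31 to 13.5 CPM in ESE mice, and its log2 fold change went from -3.44 (SE 0.76) to -1.55 (SE 0.39) without ground control replicate 6. In the opposite way, Csrnp2, a nuclear regulator, had 44.7 and 45.6 CPM in ground control replicates 4 and 5 but 21.6 CPM in replicate 6, against 14.1 to 19.5 CPM in ESE mice. Its log2 fold change went from -1.10 (SE 0.27) to -1.38 (SE 0.21), with a DESeq2 adjusted p of 0.11 and 0.000132. Abca5, a lipid transporter whose loss in people causes excess hair growth, had 122, 93.5 and 52.8 CPM in the controls and 21.1 to 45.6 CPM in ESE mice (log2 fold change -1.5, SE 0.34, and -1.77, SE 0.32). D630041G03Rik, a transcript opposite Eps8l1, had 4.04 to 11.7 CPM and 0.866 to 3.11 CPM (log2 fold change -2.12, SE 0.49). Pnma1, Csnk2a2 (a catalytic subunit of casein kinase) and Ctla4 (an inhibitory receptor of T cells) did not overlap once replicate 6 was left out, with log2 fold changes of -1.88, -1.06 and -2.28. In ground control replicate 6 they had 2.10, 33.8 and 0.682 CPM, within or below the ESE range. Mfsd4, a membrane transporter, and Tmem100, a membrane protein of vessels, were low throughout, at 1.18 to 8.40 and 0.883 to 3.62 CPM in controls and 0.216 to 0.818 and 0.0865 to 0.495 CPM in ESE mice. Both were called by DESeq2 and the likelihood ratio test with all controls, Mfsd4 at a log2 fold change of -3.11 (SE 0.72) and Tmem100 at -3.26 (SE 0.70). When ground control replicate 6 was left out they were at -1.91 (SE 0.69) and -2.76 (SE 0.83), neither was called by the likelihood ratio test, and DESeq2 gave no adjusted p for them. Apart from Pnma1, Csnk2a2 and Ctla4, each gene of this paragraph had every ESE mouse below every control, with and without replicate 6.

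Leading higher genes included a low-level acyl-CoA synthetase and several adhesion and signalling genes. Acsm3, a medium-chain acyl-CoA synthetase whose locus overlaps Eri2 on the other strand, had the smallest p of the higher genes. It was 0.473, 0.393 and 0.945 CPM in the controls and 13.3, 7.95, 3.50, 5.03 and 4.55 CPM in non-responder replicates 4 to 6 and responder replicates 3 and 4, 10.7-fold higher in the fit (log2 fold change 3.42, SE 0.63). Its DESeq2 adjusted p was 0.000653, against 0.672 in edgeR's quasi-likelihood test, and without ground control replicate 6 its log2 fold change was 3.99 (SE 0.77). Rapgef5, an exchange factor for Rap GTPases, was 16.8, 14.4 and 14 CPM in controls and 25.6, 27.8, 25.0, 24.3 and 28.1 CPM in ESE mice. The spread in either group was small beside the difference of 1.74-fold (log2 fold change 0.80, SE 0.18). Mpzl2, an epithelial adhesion protein, had 12 to 17.0 CPM against 22.2 to 34.2 CPM (log2 fold change 0.92, SE 0.23). Sh3rf1, a scaffold of JNK signalling that overlaps 1700001D01Rik on the other strand, had 12.5 to 17.3 CPM against 23.3 to 30.1 CPM (log2 fold change 0.78, SE 0.20). None of these 4 genes overlapped between the groups in either fit. The adhesion genes Sdk2 and Adgrl3 had 3.93 to 8.74 and 4.81 to 7.77 CPM in the controls and 10.3 to 24.6 and 10.0 to 26.3 CPM in ESE mice. Stac, an adaptor protein, was low, at 0.210 to 0.589 CPM against 0.976 to 7.61 CPM. In the ISS arm the log2 fold change was -0.75 for Sdk2, -0.85 for Adgrl3, -0.07 for Mpzl2 and -0.19 for Sh3rf1, and the interaction was 2.16 (SE 0.57), 2.20 (SE 0.56), 0.98 (SE 0.30) and 0.97 (SE 0.27), each with an edgeR adjusted p of 0.999.

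A further set stood higher mainly once ground control replicate 6 was left out. Hmcn1, a basement membrane protein, had 27.6 and 18.3 CPM in ground control replicates 4 and 5, 59.6 CPM in replicate 6 and 60.9 to 86.5 CPM in ESE mice. Its log2 fold change went from 1.05 (SE 0.37) to 1.67 (SE 0.26), with a DESeq2 adjusted p of 2.99e-05 in the latter fit. Cldn8, a tight junction protein, had 0.473, 0.491 and 3.15 CPM in controls and 4.02 to 10.1 CPM in ESE mice (log2 fold change 2.28, SE 0.70, and 3.87, SE 0.58). Alcam, a cell adhesion molecule, had 4.49, 4.42 and 12.3 CPM against 14.9 to 63.0 CPM (2.19, SE 0.58, and 2.88, SE 0.63, on the log2 scale). Slc45a3 and P2rx7, an ATP-gated channel of inflammatory cells and keratinocytes, stood higher by 1.75 (SE 0.40) and 1.84 (SE 0.44) on the log2 scale without replicate 6. The groups did not overlap for any of these 5 genes in either fit.

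**Figure D2:**
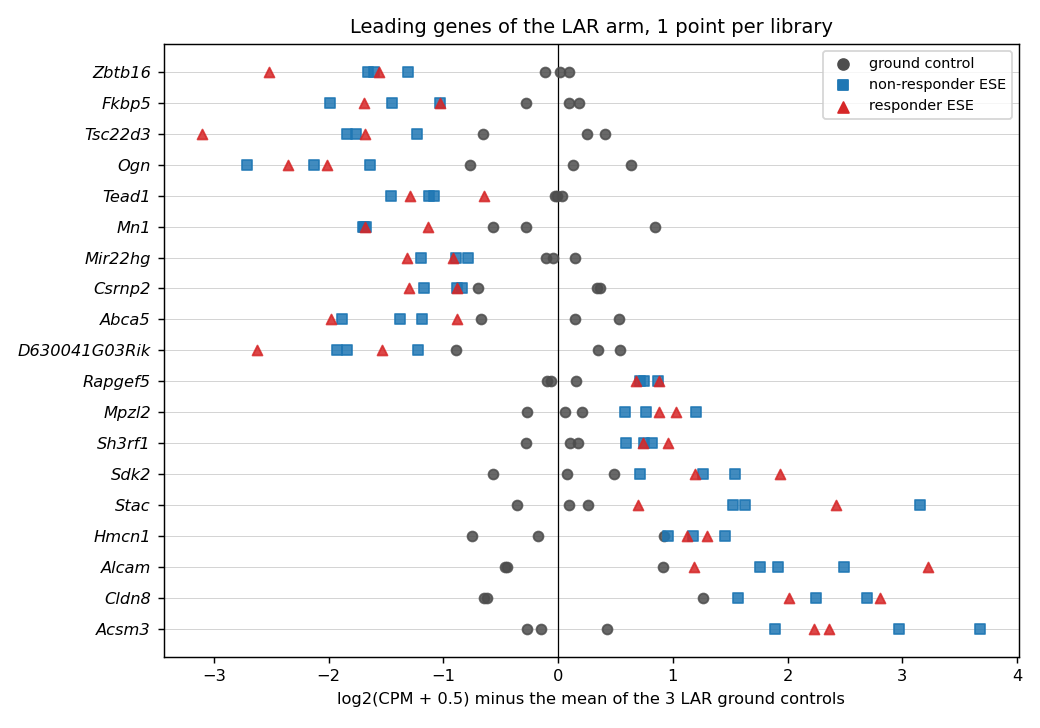
Leading genes of the LAR arm on the y axis, with log2(CPM + 0.5) of each library minus the mean of the 3 ground controls on the x axis; grey circles are controls, blue squares non-responder and red triangles responder ESE mice. For Zbtb16, Tead1, Rapgef5 and Sh3rf1 the controls lie in a tight cluster away from all 5 ESE mice, whereas for Mn1, Hmcn1, Alcam and Cldn8 ground control replicate 6 lies far to the right of the other controls.

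Genes of the inner root sheath, hair matrix and follicle stem cells were mostly higher on average in the ESE group, with wide differences among its mice, whereas most keratin-associated proteins were lower. Whether more cells of a type or more RNA in each cell stand behind such a level cannot be told apart in whole skin. The 11 genes of the inner root sheath, the rigid sleeve around the growing shaft, all had a higher mean, with a median log2 fold change of 3.6, and 3.04 without ground control replicate 6. Yet Krt71, a keratin of that sheath, had 738, 5.4 and 29.1 CPM in the controls and 38.9, 8640, 2000, 12.7 and 4907 CPM in ESE mice. The level was thus high in non-responder replicates 5 and 6 and responder replicate 4, and within the control range in the other ESE mice. Krt73 of the same sheath and Krt35 of the shaft cuticle were highest in the same 3 mice, with 0.0982 to 45.8 CPM and 0.196 to 8.51 CPM in controls and 3.83 to 1146 CPM and 0.751 to 605 CPM in ESE mice. None of the 11 genes had an unadjusted p under 0.05, and none was without overlap. The summed list was also high in responder replicate 3, at 18734 CPM, and in ground control replicate 4, at 29420 CPM. The list median was 2.74 without non-responder replicate 5 and 7.49 without ground control replicate 4. Of the shaft keratins, 9 of 14 were higher, with a median of 0.98, which was 0.21 without non-responder replicate 5, 3.70 without ground control replicate 4 and 0.42 without replicate 6. The ISS arm had 2 of 11 sheath genes higher, with a median of -0.81.

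Regulators of the hair matrix showed a like order of mice. Of 18 genes tested, 14 had a higher mean, with a median of 1.26, and 6 had an unadjusted p under 0.05 on the higher side, where 2.51% of all genes did. Lef1, the Wnt effector of the matrix, had 2.84, 0.393 and 0.945 CPM in the controls and 1.26, 105, 16.9, 0.901 and 91.6 CPM in ESE mice, again high in non-responder replicates 5 and 6 and responder replicate 4. Gli1, a target and effector of Hedgehog that overlaps Arhgap9 on the other strand, had 2.84, 2.36 and 3.52 CPM against 3.65, 43.7, 11.9, 5.03 and 98.3 CPM. All 5 ESE mice were above all controls for Gli1, although non-responder replicate 4 only by a small margin (log2 fold change 3.48, SE 1.20). The list median was 0.69 without responder replicate 4 and 2.55 without ground control replicate 4. In the ISS arm 17 of 20 regulators were higher, with a median of 0.53.

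Against the controls of their own arm, genes of hair follicle stem cells stood higher in LAR ESE mice and lower in ISS ESE mice. In the LAR arm 11 of 14 genes had a higher mean (median 0.77, 0.79 without ground control replicate 6 and 0.47 without responder replicate 3), 4 of them at an unadjusted p under 0.05, where 2.51% of all genes were higher at that p. In the ISS arm 0 of 14 were higher, with a median of -0.70. Sox9, which specifies the bulge and outer root sheath, had 21.3, 8.64 and 17.4 CPM in the controls and 19.6, 61.2, 34.5, 55.3 and 89.2 CPM in ESE mice, so that only non-responder replicate 4 lay within the control range (log2 fold change 1.73, SE 0.52). Lgr5, a Wnt co-receptor of cycling follicle stem cells, had 0.473, 0.687 and 2.31 CPM against 1.89, 4.67, 2.60, 8.86 and 46.3 CPM. Its log2 fold change of 3.37 (SE 1.28) moved between 1.89 without responder replicate 4 and 4.41 without ground control replicate 6. Bmp6, a signal that holds stem cells at rest, had 2.45 to 4.96 CPM in controls and 5.78 to 14.1 CPM in ESE mice, without overlap (log2 fold change 1.11, SE 0.40). The interaction with arm was 2.80 (SE 0.72) for Sox9, 4.24 (SE 1.36) for Lgr5 and 1.58 (SE 0.48) for Bmp6 (adjusted p = 0.999 by edgeR). With all 16 libraries scaled together, Sox9 averaged 15.6 CPM in LAR controls and 74.1 CPM in ISS controls. ESE mice averaged 51.5 CPM in the LAR arm and 35.3 CPM in the ISS arm. In the same order, Lgr5 averaged 1.15, 21.7, 12.7 and 11.9 CPM, and Bmp6 4.01, 8.47, 8.61 and 6.11 CPM. For each of them the means differed more between the controls of the arms than between their ESE mice. Of the 15 genes tested for it, 7 had an unadjusted interaction p under 0.05, where 1.56% of all genes were higher and 3.23% lower at that p.

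The pigment genes Tyr, Dct and Pmel and the cell cycle genes Mcm5, Plk1 and Pcna were highest in responder replicate 4. Kit and Sox10 of the melanocyte list were highest in non-responder replicate 4, at 47.6 and 30.7 CPM. Tyr, which encodes tyrosinase and is mutated in albino strains but still transcribed, had 0 counts in all 3 controls. In ESE mice it had 0.135, 13.1, 1.34, 0.451 and 53.1 CPM. Dct and Pmel, of melanin synthesis and of the pigment granule, had 0.630 to 2.65 and 0.630 to 1.18 CPM in controls and up to 255 and 262 CPM in responder replicate 4, with the lowest ESE values at 2.48 and 0.405 CPM in non-responder replicate 4. Pmel overlaps Dgka on the other strand. Of the 12 melanocyte genes, 8 passed the filter for low counts, and all 8 had a higher mean (median 3.57). A gene at 0 counts in all controls, such as Tyr, can pass that filter only through ESE libraries. The list median was 1.5 without responder replicate 4 and 6.12 without ground control replicate 5. DNA replication genes were higher in 28 of 28 cases (median 0.87) and mitosis genes in 27 of 27 (median 1.46), and without responder replicate 4 these medians were 0.52 and 0.97. In each list 1 gene was higher at an unadjusted p under 0.05, where 2.51% of all genes were, a share near this background. Mcm5, a subunit of the replicative helicase, had 10.4, 11.7 and 17.5 CPM in controls and 9.55, 62.9, 43.2, 30.7 and 132 CPM in ESE mice. Plk1, a mitotic kinase, had 2.84 to 3.14 CPM against 2.21, 16.7, 4.54, 3.91 and 36.5 CPM, and Pcna, the sliding clamp, 5.91 to 11.4 CPM against 9.19 to 43.4 CPM. Non-responder replicate 4 was the ESE mouse with the lowest level of all 3 genes. Of 35 histone genes, 19 passed the filter, and 18 of these 19 were higher (median 1.05). At an unadjusted p under 0.05, 3 of the 19 were higher, where 2.51% of all genes were. A low gene can pass the filter through the libraries where it is high, so the direction of the genes kept is not free of the filter. In the ISS arm replication, mitosis and histone genes had medians of 0.31, 0.67 and 0.36.

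**Figure D3:**
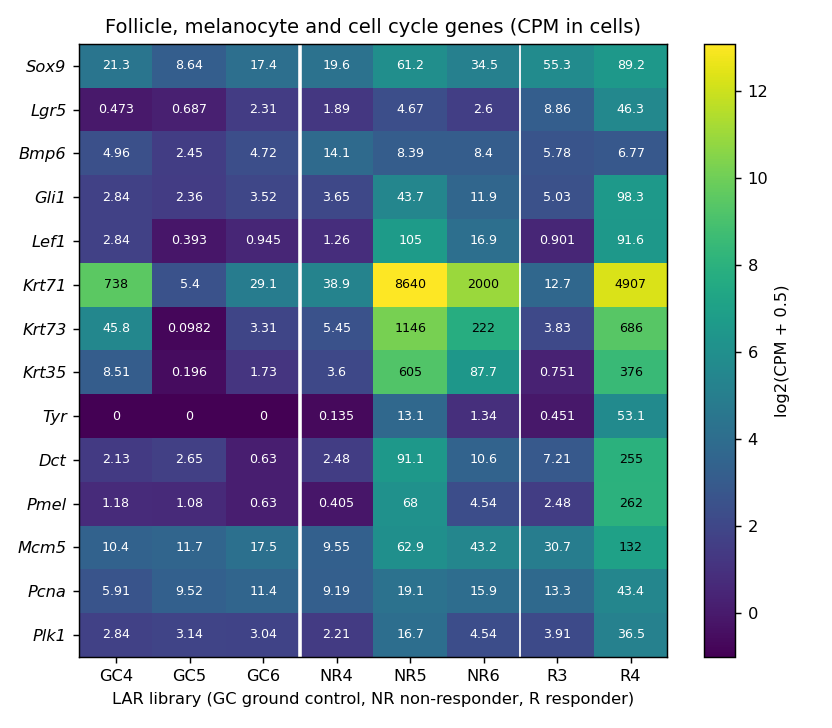
Level of follicle, melanocyte and cell cycle genes in each LAR library, in CPM in the cells and as log2(CPM + 0.5) in the colour scale; white lines separate the controls, the non-responder and the responder ESE mice. Non-responder replicate 5 and responder replicate 4 are the brightest columns, with Krt71 at 8640 and 4907 CPM, while in non-responder replicate 4 Krt71 is at 38.9 CPM, within the control range of 5.4 to 738 CPM.

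Genes of the outer epidermis leaned lower in the ESE group. Of 27 genes of the cornified envelope and suprabasal keratins, 3 had a higher mean, with a median of -0.66, and 5 were lower at an unadjusted p under 0.05, where 4.75% of all genes were. When ground control replicate 6 was left out, 2 of 28 were higher, with a median of -1.05, 12 were lower at that p and 13 did not overlap, where 4.51% and 7.97% of all genes did so. Flg2, a filaggrin-like protein of the cornified layer, had 3490 and 3048 CPM in ground control replicates 4 and 5, 968 CPM in replicate 6 and 589 to 1834 CPM in ESE mice. Lce1a1 and Lce1c, late envelope proteins, had 27.9, 18.7 and 4.88 CPM and 8.51, 6.97 and 1.63 CPM in the controls, and 1.98 to 10.2 CPM and 0.711 to 3.23 CPM in ESE mice. For all 3 genes replicate 6, the muscle-rich library, lay within the ESE range, while ground control replicates 4 and 5 were above every ESE mouse. The part of the muscle share in this was not tested. Barrier lipid enzymes behaved alike, with 2 of 18 higher and a median of -0.42, and -0.78 without replicate 6, where 6 were lower at an unadjusted p under 0.05 and 9 did not overlap. Abca12, which loads lipids into lamellar granules, had 364, 433 and 122 CPM against 89.6 to 235 CPM, and Aloxe3, a lipoxygenase of the barrier, had 277, 152 and 62.2 CPM against 18.2 to 96.7 CPM. Without ground control replicate 4 the cornified median was -0.28 and the lipid median -0.04. The 10 basal keratinocyte genes had a median of 0.07. In the ISS arm the cornified and lipid medians were -0.36 and -0.29.

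Hair keratin-associated proteins, which cross-link shaft keratins, had 10 of 43 members higher and a median of -1.04. That direction rested on ground control replicate 4, where the list summed to 12211 CPM, against 1784 and 364 CPM in replicates 5 and 6 and 423 to 4283 CPM in ESE mice. Without it the median was 1.52. Krtap19-1 had 101, 36.2 and 2.41 CPM in controls and 3.24 to 18.6 CPM in ESE mice (log2 fold change -2.38, SE 0.94, and -2.95, SE 0.65, without replicate 6). The cytokines Il1a, which overlaps Gm14023 on the other strand, and Il18, both made by keratinocytes, had the same shape. The log2 fold change went from -1.53 (SE 0.63) to -1.99 (SE 0.53) without replicate 6 for Il1a, and from -1.30 (SE 0.67) to -1.77 (SE 0.59) for Il18. Cxcl12, a chemokine of dermal cells, went the other way, with 2.45 to 4.93 CPM in controls and 7.14 to 19.9 CPM in ESE mice (log2 fold change 1.48, SE 0.45). The list of inflammatory mediators had 7 of 15 genes higher and a median of -0.04.

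Striated muscle transcripts made up most of what ground control replicate 6 added. All 22 fast sarcomere genes had a lower mean in ESE mice, with a median of -4.40 and 12 genes at an unadjusted p under 0.05, where 4.75% of all genes were lower at that p. Without replicate 6 the median was -1.56 with 0 genes at that p, and without ground control replicate 5 as well it was 7.38, with replicate 4 as the only control. The ESE libraries themselves ranged from 50.7 to 15959 CPM for the list, with non-responder replicates 5 and 6 lowest and responder replicate 3 highest. Actn3, an actinin of fast fibres, had 0.709, 255 and 4603 CPM in the controls and 0.744 to 49.5 CPM in ESE mice. Tnnt1, a slow troponin, had 0, 5.10 and 310 CPM against 0.149 to 1.44 CPM. The slow sarcomere list went from a median of -4.22 to 0.09 without replicate 6, and the list of muscle metabolism and regulators from -4.59 to -0.97. Tpm3, a tropomyosin that many cell types make, was the 1 slow list member without overlap in both fits, with 107, 82.4 and 373 CPM against 47.8 to 77.6 CPM (log2 fold change -0.66, SE 0.24, without replicate 6).

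Oxidative phosphorylation genes turned direction with that library. With all controls 8 of 79 were higher, with a median of -0.83. When ground control replicate 6 was left out, 73 of 80 were higher, with a median of 0.68, 13 of them at an unadjusted p under 0.05 and 32 without overlap, where 3.68% and 8.04% of all genes were on that side. Ndufs8, a subunit of complex I, had 11.3 and 11.1 CPM in ground control replicates 4 and 5, 120 CPM in replicate 6 and 36.4, 22.4, 18.7, 23.2 and 29.3 CPM in ESE mice. The summed list was 1656 and 1716 CPM in those 2 controls, 11340 CPM in replicate 6 and 2141 to 4945 CPM in ESE mice. It was highest among ESE mice in non-responder replicate 4, and without that mouse and replicate 6 the median was 0.42. The ISS arm had 24 of 79 higher, with a median of -0.11.

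**Figure D4:**
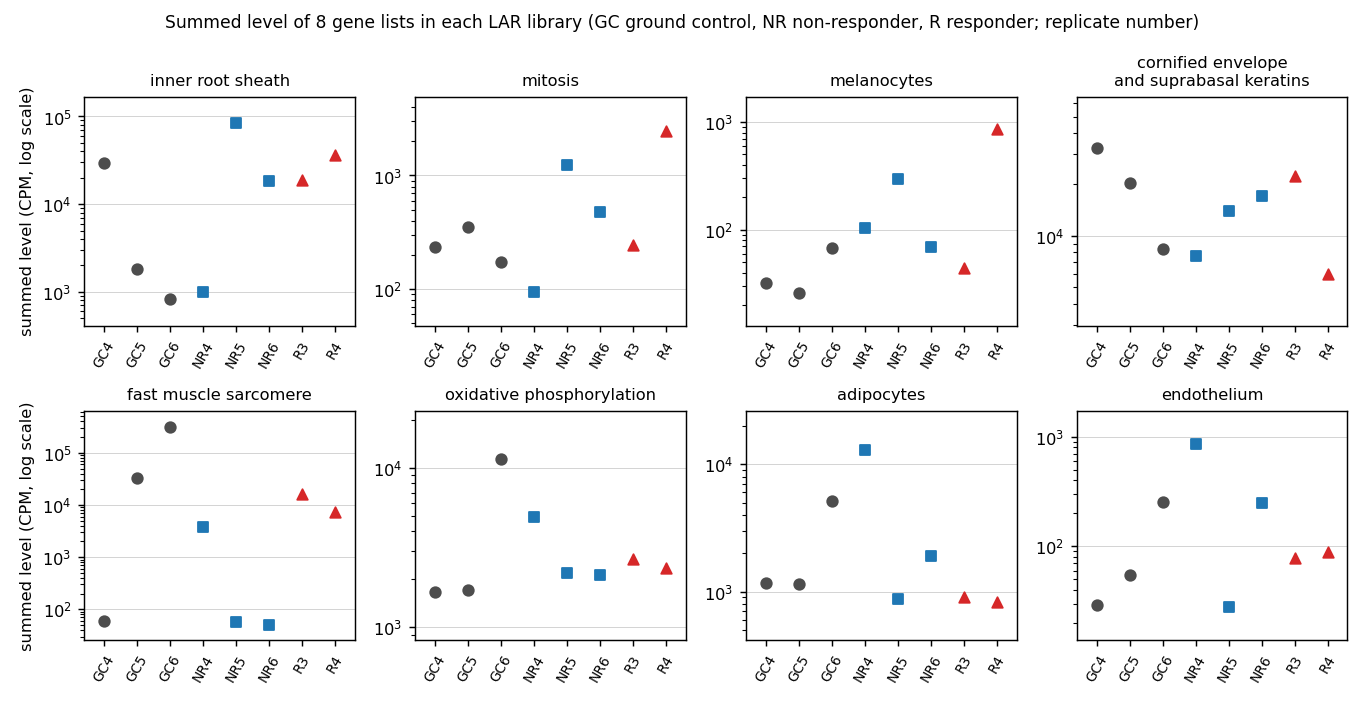
Summed level of 8 gene lists in CPM on a log axis for each LAR library; grey circles are controls, blue squares non-responder and red triangles responder ESE mice. Fast muscle and oxidative phosphorylation peak in ground control replicate 6 (314420 and 11340 CPM), adipocyte and endothelial genes in non-responder replicate 4 (13019 and 854 CPM), and inner root sheath genes in non-responder replicate 5 (84149 CPM).

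Summed fat and vessel genes were highest among ESE mice in non-responder replicate 4. Fatty acid synthesis genes were higher in 15 of 15 cases (median 1.95), yet their sum was 1474 to 1582 CPM in the controls and 36823, 2284, 6264, 1567 and 1767 CPM in ESE mice, and the median was 0.95 without that mouse. Scd2, a fatty acid desaturase, was less dependent on it, with 31.2, 14.1 and 10.2 CPM in controls and 117, 124, 53.6, 19.8 and 134 CPM in ESE mice (log2 fold change 2.29, SE 0.69). Adipocyte genes had a median of 1.51, and -0.18 without non-responder replicate 4. Endothelial genes had a median of 1.24, and 2.80 without ground control replicate 6, where that of mural cells was 1.94. The endothelial median was 0.07 and the mural median 0.09 without non-responder replicate 4 but with all controls, and 1.54 and 1.63 without both libraries. With all controls, the endothelial median was also below 0, at -0.48 to -0.23, with the RNA integrity number as covariate, with the replicate block and with responders alone, and with that covariate it was 0.95 when ground control replicate 6 was left out. In these settings and without non-responder replicate 4, the adipocyte median was -0.99 to -0.18. The 5 brown adipocyte genes went from a median of -1.97 to 1.98 without ground control replicate 6, in which the list summed to 389 CPM. Those of 4 mammary epithelium genes were 0.73 and 4.05, and -0.82 without non-responder replicate 4. Cspg4, the NG2 proteoglycan of pericytes and follicle cells, kept the groups apart, with 21.0, 16.4 and 36.1 CPM in controls and 111, 48.3, 43.1, 56 and 99.1 CPM in ESE mice (log2 fold change 1.54, SE 0.43, with an interaction of 2.51, SE 0.67). Acta2, smooth muscle actin, had 5.10 to 29.9 CPM against 11 to 126 CPM. Lyve1, of lymphatic vessels, was lower in all ESE mice, at 0.893 to 1.38 CPM against 1.96 to 6.51 CPM.

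In the sebaceous list 10 of 12 genes were higher (median 1.05, 0.81 without ground control replicate 6, 0.53 without responder replicate 3 and 2.38 without ground control replicate 4). Mgst1, a membrane glutathione transferase, had 8.44 to 26.9 CPM in controls and 197, 36, 38.6, 73.0 and 76.4 CPM in ESE mice (log2 fold change 2.31, SE 0.68). Cholesterol synthesis genes were higher in 19 of 24 cases (median 0.35), with 15 of 24 and 0.10 without ground control replicate 6 and a median of 0.70 without ground control replicate 4. Nsdhl, a sterol dehydrogenase, had 6.88 to 15.8 CPM against 17.3 to 39.4 CPM without overlap (log2 fold change 1.21, SE 0.36). Genes of the unfolded protein response were split, with 8 of 15 higher and a median of 0.29. The median was 0.13 without ground control replicate 5 and 0.71 without ground control replicate 4. Pdia4, a chaperone of the endoplasmic reticulum, had 42 to 61.8 CPM in controls and 66.8 to 181 CPM in ESE mice, and Calr 153 to 208 CPM and 212 to 571 CPM, both without overlap. Hspa5, the master chaperone of that compartment, had 64.4 to 128 CPM and 116 to 247 CPM. Liver plasma protein genes summed to 34.4 to 41.8 CPM in controls and 34.9 to 474 CPM in ESE mice, highest in non-responder replicate 4.

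Macrophage and mast cell genes leaned lower, while other immune lists were mixed. Macrophage genes had 4 of 13 higher and a median of -0.79, and -0.33 without ground control replicate 6, where leaving out ground control replicate 4 as well gave 0.33. Their sum was 101 to 228 CPM in controls, 250 CPM in non-responder replicate 4 and 62.2 to 100 CPM in the other ESE mice. C1qa, of the complement starter made by macrophages, had 34.3, 18.2 and 25.2 CPM in controls and 20.3, 9.86, 9.59, 9.39 and 6.15 CPM in ESE mice, and Cd68, a lysosomal protein, 7.26 to 16.1 CPM and 4.39 to 7.88 CPM. Only non-responder replicate 4 for C1qa, and responder replicate 4 for Cd68, reached the lowest control. Antigen-presenting cell genes had 8 of 9 higher with a median of 0.10, and 3 of 9 with -0.09 without replicate 6. Of neutrophil genes 3 of 3 were higher (median 1.40, and 0.04 without responder replicate 3), and of T cell genes 2 of 7 (median -0.30). Mast cell genes had 0 of 5 higher (median -1.52, and -0.83 without replicate 6), and Mrgprb2, a receptor of connective tissue mast cells, had 5.67, 9.42 and 1.63 CPM against 0.835 to 3.0 CPM. Fibroblast genes had a median of -0.26, and 0.34 without ground control replicate 6.

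The gene sets on which the study centres showed mixed differences in this arm. Of 12 pluripotency pathway genes named by the study, chosen on its own samples, 7 were higher, with a median of 0.61, which was -0.36 when only genes with at least 10 counts in every library were kept. The study lists some of these genes as higher and others as lower in its ESE group, so the median has no single direction to be set against. Map2k3 and Prkcq are among those it lists as lower, and Ctnnb1, Acvr1 and Ntrk3 among those it lists as higher. Map2k3, a kinase upstream of p38, had 140, 61.7 and 94.0 CPM in controls and 35.8 to 66.6 CPM in ESE mice (log2 fold change -1.06, SE 0.32). Ctnnb1, beta-catenin, had 157 to 214 CPM and 212 to 419 CPM (0.66, SE 0.28, on the log2 scale), and Acvr1, a BMP receptor, 9.69 to 18.9 CPM and 13.7 to 25.0 CPM. Ntrk3, a neurotrophin receptor, was higher in all ESE mice, at 1.80 to 25.7 CPM against 0.709 to 1.28 CPM, while Prkcq, the theta isoform of protein kinase C, stood lower by a log2 value of -2.68 (SE 0.74) that was -0.86 (SE 0.46) without ground control replicate 6. The VEGF list had 7 of 10 genes higher and a median of 0.56, which was -0.22 without non-responder replicate 4, -0.42 with the RNA integrity number as covariate, 1.99 without ground control replicate 6 (8 of 10 higher) and 1.19 without both of these libraries. Araf, a RAF kinase, was lower in every ESE mouse, at 71.6 to 86.5 CPM against 90.0 to 116 CPM (log2 fold change -0.34, SE 0.17). For this gene the paper reports hypomethylation and more ARAF protein in responders, neither of which an RNA level over both cohorts measures. Nrp2, a co-receptor of VEGF, was high in non-responder replicate 5 and responder replicate 4, at 206 and 171 CPM, against 3.63 to 19.9 CPM in controls. The writers and erasers of DNA methylation had a median of 0.06. Dnmt1, the maintenance methyltransferase, had 145 to 177 CPM in controls and 108 to 272 CPM in ESE mice, Dnmt3a, which methylates anew, 73.4 to 85.7 CPM and 38.6 to 74.6 CPM, and Uhrf1, the partner of Dnmt1, 9.93 to 13.4 CPM and 3.11 to 86.1 CPM.

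Medians of the stress lists named next and of ribosomal proteins ran from -0.42 to 0.11 with all controls. Outside this range were the unfolded protein response, described above, at 0.29, and heat shock and chaperone genes, at 0.14. The median log2 fold change was -0.30 for 27 immediate early genes, 0.04 for 24 interferon-stimulated genes, -0.42 for 25 hypoxia genes, -0.25 for 19 p53 targets, 0.10 for 22 antioxidant genes of NRF2, 0.11 for 26 DNA repair genes and -0.04 for 79 ribosomal proteins, beside -0.04 for all genes. The control set without replicate 6 gave other values, since the hypoxia and antioxidant medians were -0.12 and 0.63. Among p53 targets, Sesn1, a stress sensor that restrains mTOR, was lower in all ESE mice, at 28.2 to 38.6 CPM against 39.2 to 54.5 CPM (log2 fold change -0.55, SE 0.19).

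**Figure D5:**
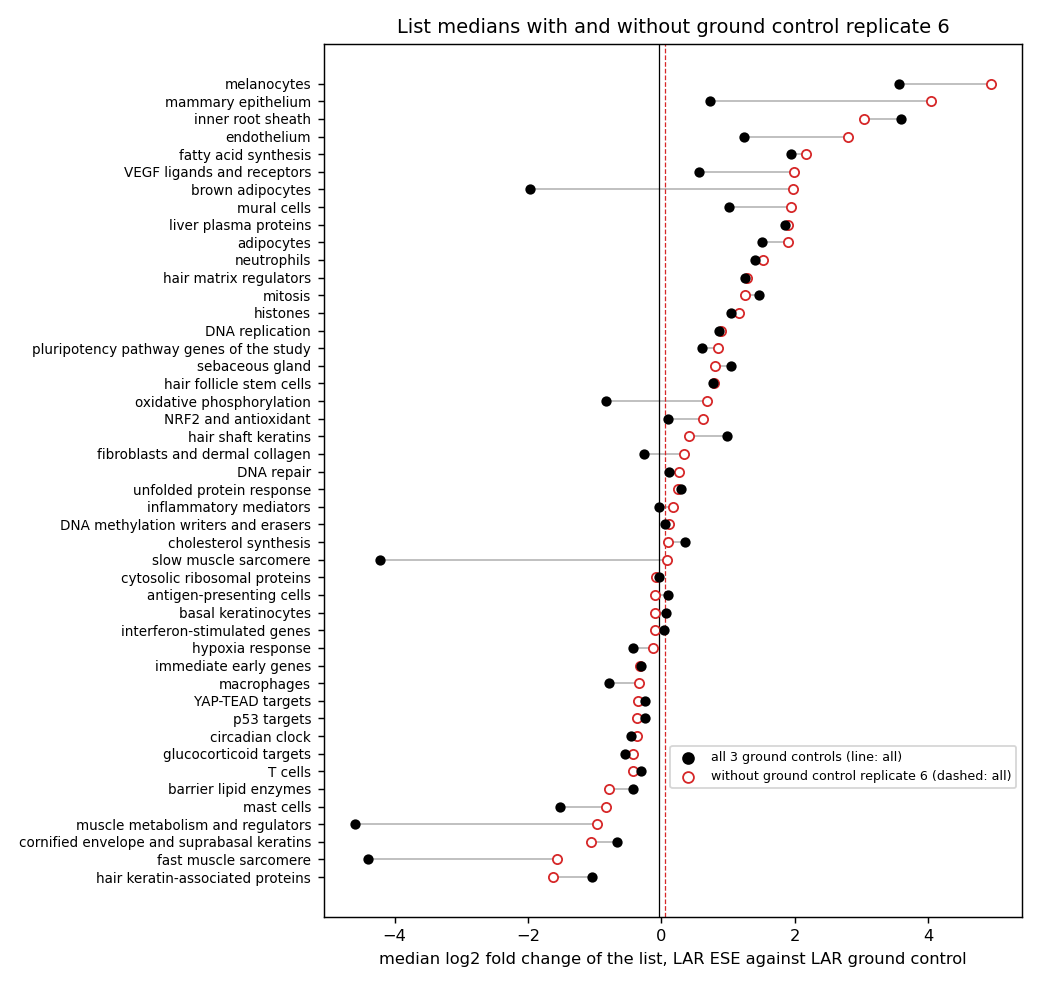
Median log2 fold change of each gene list on the x axis, ESE mice against ground controls of the LAR arm, with all 3 controls (black) and without ground control replicate 6 (open red); vertical lines mark the medians of all genes, -0.04 and 0.06. The slow muscle list moves from -4.22 to 0.09, the brown adipocyte list from -1.97 to 1.98, and oxidative phosphorylation crosses 0, from -0.83 to 0.68.

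No gene passed the test between the cohorts within the arm, which with so few mice does not show that they are alike. Between the 2 responders and the 3 non-responders, 0 of 13864 genes (0.0%) passed in edgeR's quasi-likelihood test, and 264 (1.9%) had an unadjusted p under 0.05. The high levels of follicle genes in non-responder replicate 5 and responder replicate 4 crossed the cohorts. Lef1, for example, had 105 CPM in the former and 91.6 CPM in the latter, against 0.901 CPM in responder replicate 3.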

How the data were processed

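Hind limb skin of 16 mice was sequenced after exon capture, and the 8 libraries of the LAR arm are compared here. The deposited counts are whole-number reads per gene that the authors obtained by mapping to mm10 with STAR and counting with featureCounts, as raw counts without normalization; the strand setting and the removal of duplicates before counting are not given in the sources used here. The authors also deposited, from a Bioanalyzer, the RNA integrity number, a score, and the percent of RNA fragments over 200 nucleotides, and statistics of mapping. Deposited columns of fold changes and p-values from the authors' own comparisons were not used. The arm of each library came from the authors' list of libraries, and the groups from the labels.

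Of 14858 genes, those kept by filterByExpr were scaled by TMM and compared in edgeR 4.0.16 (R 4.3.3, limma 3.58.1) by its robust quasi-likelihood fit and F test, with Benjamini-Hochberg adjustment over all genes tested and a threshold of 0.05. Levels are CPM over the scaled library sizes, mean differences are log2 fold changes with SE, and groups without overlap were counted from CPM. Values of the ISS arm come from a fit of that arm, and differences between the arms from an interaction over all 16 libraries. The replicates are separate mice. No pair of libraries of a group agreed within sampling noise (chi-square per degree of freedom 73.6 to 500). The tests were also run on simulated counts with a common spread for all genes and no single mouse apart. These libraries differ from that setting, so the run does not show how the tests behave on them.

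The LAR arm and the 54 gene lists, of which 46 are described, were chosen with earlier results of these data known. Genes named are, in each fit, the 8 higher and 8 lower of smallest p with an average log2 CPM over 1 (none passed the threshold), the 3 of smallest p of each list without ground control replicate 6, and members of the pluripotency and VEGF lists. Outside this rule, 10 genes were named after their values were seen: Ddit4, Nr3c1, Sgk1, Lef1, Krt71, Pmel, Dnmt1, Dnmt3a, Mfsd4 and Tmem100. Alternatives were RLE scaling, limma-voom, DESeq2 1.42.0, edgeR's likelihood ratio test, other filters, no robust estimation, a fit of 16 libraries, mouse number as a block, each cohort alone, Rn45s left out, and each library left out. RNA quality covariates were added after the data were seen. Python 3.11.15 prepared the tables.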

Additional observations from a re-analysis of the deposited data

Results flagged for a closer look

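In 22 of 134 values tested among the 5 ESE libraries of the LAR arm, 1 library lay far from the other 4. The rule used flags about 1 in 20 where values are normally distributed. Here it was applied to levels that were not log-transformed, for which its chance rate was not tested, so the 22 cannot be set against that share. Of the 22, 13 were non-responder replicate 4, 5 responder replicate 3 and 4 responder replicate 4. The flagged values are sums over lists that share genes and libraries, or single genes of them.

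Non-responder replicate 4 stood apart by tissue markers. Its summed level was 13019 CPM for adipocyte genes, 36823 CPM for fatty acid synthesis, 6917 CPM for the sebaceous gland and 4945 CPM for oxidative phosphorylation. It was 854 CPM for endothelium, 878 CPM for mural cells, 250 CPM for macrophages, 2546 CPM for fibroblasts and dermal collagen, 124 CPM for brown adipocytes and 474 CPM for liver plasma proteins. Among single genes it had 197 CPM of Mgst1, 126 CPM of Acta2 and 20.3 CPM of C1qa. Each of these was the highest ESE value.

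Responder replicate 4 stood apart by genes of follicle, pigment cells and replication, with 46.3 CPM of Lgr5, 53.1 CPM of Tyr, 262 CPM of Pmel and 43.4 CPM of Pcna. Responder replicate 3 had the highest ESE values of Mn1 (14.8 CPM) and Mrgprb2 (3.0 CPM), and of the summed barrier lipid enzymes (2283 CPM), slow muscle sarcomere genes (432 CPM) and p53 targets (3412 CPM).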

How the results depend on the processing

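The count of genes with an adjusted p under 0.05 stayed at 0 in all comparisons except with DESeq2 (28 genes with all controls, 32 without ground control replicate 6) and the likelihood ratio test (14 and 10). Single genes that turned direction were Sgk1, from -0.08 to 0.10 with the RNA integrity number as covariate, 0.12 with limma-voom, 0.21 with responders alone and -0.30 to 0.22 on leaving out single libraries, and Ndufs8, from -0.87 to 0.41 with limma-voom, 0.06 with the replicate block and -1.34 to 1.22 on leaving out single libraries. Without ground control replicate 6, leaving out a further library gave -0.55 to 0.20 for Nr3c1, -0.00 to 0.34 for Sgk1, -3.51 to 4.97 for Actn3 and -2.58 to 6.79 for Tnnt1. The cause was not tested.

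Mouse numbers 1, 13 and 18 are shared by ground controls and ESE mice. Deviations of same-numbered mice did not go together (r of -0.035, -0.109 and 0.154), and the mice were compared as unpaired. Whether a shared number stands for a link between mice cannot be told from these few values. With the replicate block 0 genes passed, and 1077 and 349 had an unadjusted p under 0.05, against 1006 and 1158 without it. That count with all controls was 666 with non-responders alone, 477 with responders alone, and 610, 670 and 511 without non-responder replicates 5 and 6 and responder replicate 4. Without ground control replicate 6 it was 218 with the ribosomal share as covariate, 479 with responders alone, and 433, 1838 and 754 without ground control replicate 4 and responder replicates 3 and 4. For the interaction it was 690, 2082 with limma-voom and 455 without non-responder replicate 3. Higher genes were 34.6% of this count with all controls and 47.7% in DESeq2, and 44.9% without ground control replicate 6, 57.5% in DESeq2 and 24.6% in limma-voom. The biological coefficient of variation was 0.564 with all controls.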
